A study of Mus musculus with 2 samples.

Results

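The 10 genes described here code for enzymes that make prostaglandins and leukotrienes (*Ptgs1*, *Ptgs2*, *Ptges*, *Hpgds*, *Alox5*, *Alox15* and *Ltc4s*), for the protein that presents arachidonic acid to 5-lipoxygenase (*Alox5ap*), and for a pair of receptors for prostaglandin E2 (*Ptger2* and *Ptger4*). They were taken by symbol from the 31053 genes of the count tables, and each of the 10 was found once. Wounds in the back skin of mice were sampled on day 5, and live cells that exclude 7AAD gave 2 single-cell libraries, 1 labelled PBS and 1 labelled DTX. Each captured transcript is counted once through its unique molecular identifier, or UMI. The study asked how the loss of macrophages that carry CD206, the product of *Mrc1*, changes the wound.

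By the labels, both libraries come from C57BL/6 mice of the genotype Mrc1-DTR, 7 to 9 weeks old, which received PBS in one group and diphtheria toxin (DTX) in the other. The study's methods describe the comparison differently, as wild-type controls and Mrc1-DTR mice that all received diphtheria toxin, and its text gives the cell number of each library to the other group while it describes the cell makeup of the groups in the order of the labels. Here PBS and DTX stand for the libraries labelled so. Mrc1-DTR mice express the diphtheria toxin receptor from the *Mrc1* promoter, so the toxin acts on any cell that uses this promoter, and live cells of 3 male mice per group were pooled. By the methods every wound carried a silicone splint, and the mice received carprofen, an inhibitor of the cyclooxygenases that *Ptgs1* and *Ptgs2* encode, once daily for pain. *Mrc1* itself stood at 491 CPM in macrophage-like cells of the PBS library and at 432 CPM in those of the DTX library, where CPM is the usual scaling of a gene's UMIs to the total of its class. Over all cells *Mrc1* stood at 65.4 CPM in the PBS library and 268 CPM in the DTX library, in which macrophage-like cells were the larger share, so the targeted gene was not lower over all cells of the library labelled with the toxin. These are RNA levels. At the protein level, by flow cytometry and staining, the study reported fewer CD206-positive cells in wounds of its Mrc1-DTR mice than in controls.

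Prostaglandins and leukotrienes are short-lived lipids made from arachidonic acid that phospholipases release from membranes. Cyclooxygenases (*Ptgs1*, mostly constitutive, and *Ptgs2*, induced in inflammation) make prostaglandin H2, which *Ptges* turns into prostaglandin E2 and *Hpgds* into prostaglandin D2. *Alox5*, with *Alox5ap*, makes leukotriene A4, which *Ltc4s* joins to glutathione to give leukotriene C4, while *Lta4h* makes the neutrophil attractant leukotriene B4. In skin these lipids act on blood flow, pain, leukocyte entry and keratinocyte growth.

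After cells with under 500 genes, over 6% mitochondrial UMIs or a doublet call were left out, 7944 cells with 81235634 UMIs remained in the PBS library and 6613 cells with 54872675 UMIs in the DTX library. Clusters were made without the 10 genes and the other genes of the pathway, and were named from marker genes. Macrophage-like cells made up 21.4% of cells in the PBS and 66.8% in the DTX library, fibroblast-like cells 38.6% and 9.93%, and epithelial-like cells 26.0% and 3.55%. Cluster 8, led by *Cst3* and *Acp5*, stayed unnamed, and 9 classes had at least 50 cells in each library and were compared. The mast-like cells (34 and 18), Langerhans-like cells (122 and 37) and myocyte-like cells (7 and 11) did not, so their levels are given side by side only. There was 1 library per group, hence no spread between samples and no test. Intervals are 95% intervals of the UMI counts and cover counting error alone, and a difference between the libraries cannot be told apart from one between captures or pools. Of the barcodes, 37 occurred in both libraries, and without their cells the counts of genes past 2-fold below were the same.

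The genes sat in different compartments of the wound. In the PBS library fibroblast-like cells held 73.0% of the UMIs of *Ptgs2* and 67.1% of those of *Ptges*. Epithelial-like cells held 84.8% of the UMIs of *Ptgs1*, 79.2% of those of *Hpgds* and 52.7% of those of *Ptger4*. Macrophage-like cells held 52.2% of the UMIs of *Alox5ap*. Langerhans-like cells, 1.54% of the cells, held 76.0% of the UMIs of *Alox5* and 65.3% of those of *Ltc4s*. In the DTX library, where macrophage-like cells were the largest class, their share was 83.8% for *Alox5ap*, 90.6% for *Ptger2*, 49.9% for *Ptgs2* and 55.2% for *Ltc4s*. Such shares combine the number of cells in a class with the level in each cell.

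**Figure D1:**
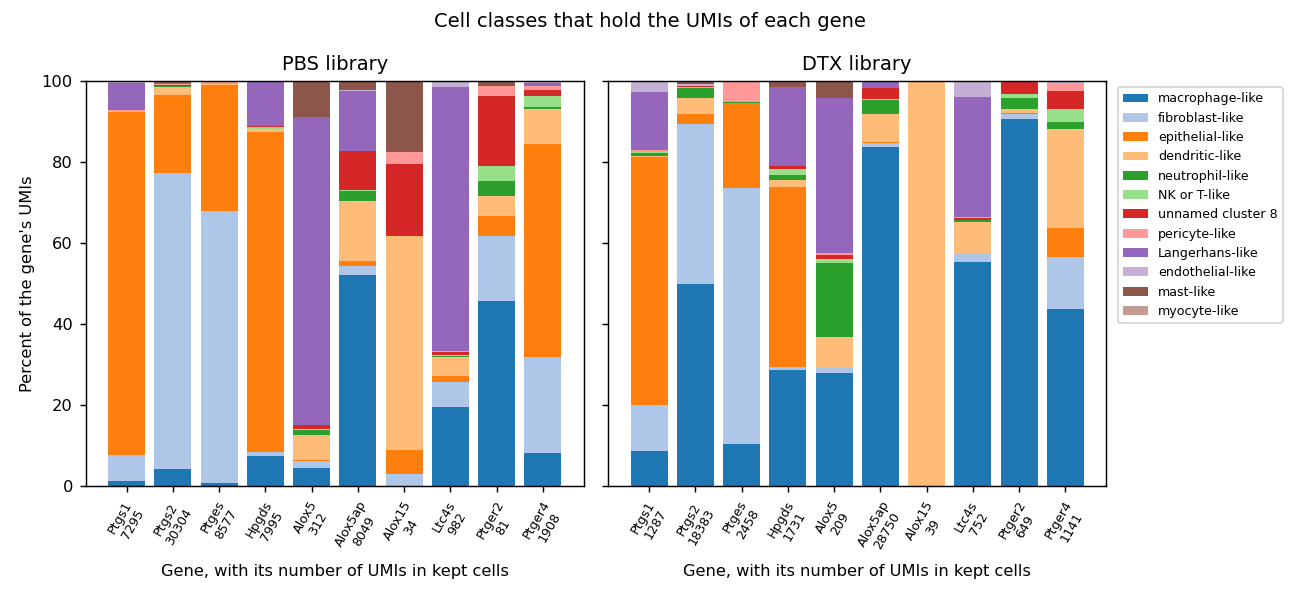
Stacked bars give the percent of each gene's UMIs (y axis) that lay in each cell class in the PBS library (left) and the DTX library (right), with the number of UMIs under each gene. Langerhans-like cells take 76.0% of the *Alox5* bar in PBS and 38.3% in DTX, and macrophage-like cells take 52.2% and 83.8% of the *Alox5ap* bar.

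Langerhans-like cells had the highest level of *Hpgds*, *Ltc4s* and *Alox5* among the classes in both libraries. These are the macrophage-related antigen-presenting cells of the epidermis, and their cluster had *Cd207* (langerin), *Mfge8* and *H2-M2* among its 10 leading genes, and also *Ltc4s*, which the clustering had not used. *Hpgds* stood at 693 CPM in the PBS and 809 CPM in the DTX library, against 222 and 198 CPM in epithelial-like cells, the next class in PBS. *Ltc4s* stood at 509 and 534 CPM, and the next class was macrophage-like in PBS with 23.1 CPM and endothelial-like in DTX with 36.4 CPM. *Alox5* stood at 188 and 191 CPM, and the next class was mast-like with 150 CPM from 28 UMIs and 63.7 CPM from 9 UMIs. In PBS the intervals of Langerhans-like (165 to 214 CPM) and mast-like cells (99.7 to 217 CPM) overlapped for *Alox5*.

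*Ptgs1* and *Alox5ap* were also high in these cells, whereas the inducible cyclooxygenase was low. *Ptgs1* reached 390 CPM in PBS and 440 CPM in DTX, above the 217 and 203 CPM of epithelial-like cells. *Alox5ap* reached 952 and 996 CPM, within the range of neutrophil-like cells. *Ptgs2* was at 27.0 CPM from 34 UMIs and 9.57 CPM from 4 UMIs, and *Ptges* had 1 UMI in each library. The levels of a gene in the PBS and DTX libraries lay within overlapping intervals for each of *Ptgs1*, *Hpgds*, *Alox5*, *Alox5ap* and *Ltc4s*.

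After every cell had been thinned to 2000 UMIs, *Ltc4s* was found in 63.3% of 120 Langerhans-like cells of PBS and 66.7% of 36 of DTX. *Alox5* was found in 31.7% and 47.2% of them, and *Hpgds* in 75.8% and 72.2%. Without thinning these shares were 95.1% and 94.6% for *Ltc4s* and 74.6% and 78.4% for *Alox5*. Fibroblast-like cells, which serve as a measure of free RNA, gave thinned shares of 0.335% and 0% for *Ltc4s* and 0.0335% and 0% for *Alox5*, the zeros with an upper limit of 0.566%. The median depth was 9507 and 10637 UMIs in Langerhans-like and 11177 and 13960 UMIs in fibroblast-like cells. Keratinocyte RNA, 12 keratin and related genes summed, reached 0.788% of its epithelial level in Langerhans-like cells of PBS, and at that percent the epithelial *Ptgs1* would give 1.71 CPM of the 390 CPM measured. Of the 38 Alox5-positive Langerhans-like cells of PBS, 89.5% also held a UMI of *Alox5ap* (interval 75.2% to 97.1%), against 84.2% of all 120 cells. *Ltc4s* was found in 68.4% of those 38 cells and in 63.3% of all in PBS, but in 52.9% of 17 such cells and 66.7% of all 36 in DTX. Each of these intervals included the share in all cells of its library. Macrophage genes were present too, since the sum of 8 of them (*Adgre1*, *C1qa*, *C1qb*, *C1qc*, *Csf1r*, *Mrc1*, *Fcgr1* and *Ms4a7*, chosen after values had been seen) reached 17.8% of its macrophage level in Langerhans-like cells of PBS and 59.99% in those of DTX. Each percent is of the macrophage level in the same library. *Alox5ap* stood at 505 CPM in macrophage-like cells of PBS and 794 CPM in those of DTX. The part of macrophage RNA in the *Alox5ap* of Langerhans-like cells was not tested.

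Because *Ptgs1* and *Alox5* shared this class, and *Ptgs2* was low in it, the 250 bases before the start of these 3 genes are shown, from RefSeq on the mouse build GRCm38. Capitals mark the letters GAGGAA, the core of sites for the myeloid factor PU.1 (gene *Spi1*), and GGGCGG, a GC box, on either strand.
Ptgs1 (GRCm38, chr2:36230176-36230425, plus strand): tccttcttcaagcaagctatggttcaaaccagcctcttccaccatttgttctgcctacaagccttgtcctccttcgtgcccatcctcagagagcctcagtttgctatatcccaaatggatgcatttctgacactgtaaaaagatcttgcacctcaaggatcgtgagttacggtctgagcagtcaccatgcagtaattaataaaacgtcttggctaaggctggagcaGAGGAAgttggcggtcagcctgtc
Alox5 (GRCm38, chr6:116461179-116461428, minus strand): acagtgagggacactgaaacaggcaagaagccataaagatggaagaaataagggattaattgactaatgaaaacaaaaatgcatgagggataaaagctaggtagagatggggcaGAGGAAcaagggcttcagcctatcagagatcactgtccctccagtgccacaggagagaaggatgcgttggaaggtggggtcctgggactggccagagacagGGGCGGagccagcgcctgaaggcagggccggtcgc
Ptgs2 (GRCm38, chr1:150099781-150100030, plus strand): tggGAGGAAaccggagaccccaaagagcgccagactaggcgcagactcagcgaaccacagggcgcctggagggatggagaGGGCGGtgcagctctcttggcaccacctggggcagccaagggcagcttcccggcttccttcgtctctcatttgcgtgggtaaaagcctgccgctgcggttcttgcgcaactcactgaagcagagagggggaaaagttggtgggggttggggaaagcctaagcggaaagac
GAGGAA occurred in 5 of the 8 genes with an entry (*Ptgs1*, *Ptgs2*, *Ptges*, *Hpgds* and *Alox5*) and in 23.4% of all 32536 windows of that length. GGGCGG occurred in 4 of the 8 (*Ptgs2*, *Ptges*, *Alox5* and *Ptger4*) and in 33.0% of all windows. CCAAT, found in *Ptger2* and *Ptger4*, occurred in 33.8% of all windows, and TATAAA, found in none of the 8, in 12.3%. The windows of *Alox5* and *Ptgs2* thus held both motifs shown, that of *Ptgs1* held GAGGAA alone, and that of *Ltc4s* held none of the 4. The matches describe letters only. *Alox5ap* and *Alox15* have no entry, and the windows of *Hpgds* and *Ltc4s* reach into the annotated gene and are not shown. That of *Ptges* lies wholly inside the annotated gene, since RefSeq and GENCODE differ in its start.

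**Figure D2:**
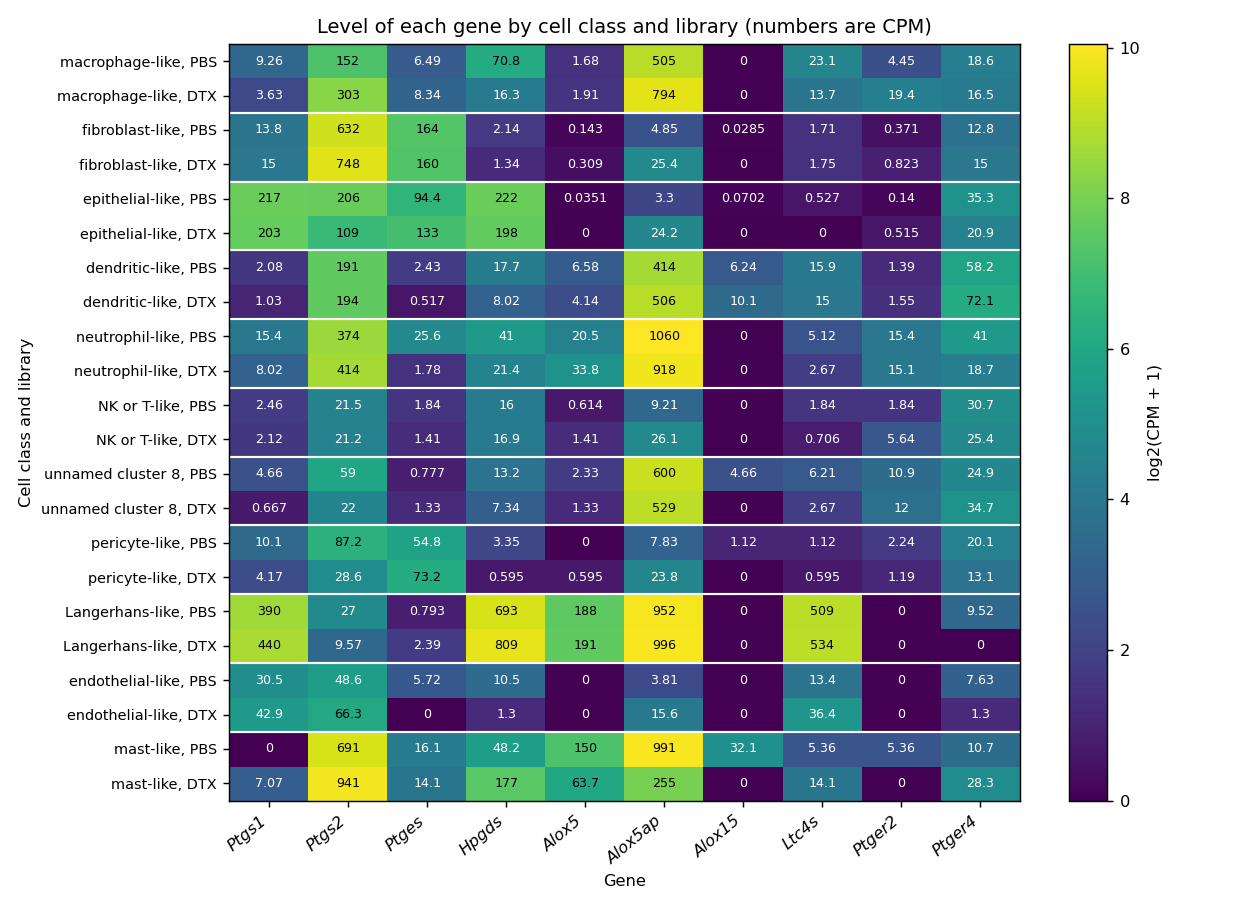
Color gives the level of each gene (columns) as log2(CPM + 1) in each cell class and library (rows), and the printed number is the CPM. The Langerhans-like rows are highest for *Ptgs1*, *Hpgds*, *Alox5* and *Ltc4s*, the mast-like and fibroblast-like rows for *Ptgs2*, and the fibroblast-like and epithelial-like rows for *Ptges*.

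Epithelial-like cells expressed both cyclooxygenases and both prostaglandin synthases, and the levels of *Ptgs2* and *Hpgds* differed most between their clusters. They divided into a cluster with *Krt16*, *Krt1* and *Krt10* among its leading genes (cluster 3), a cluster led by *Cst6* and *Krt79* (cluster 4) and a cycling cluster led by *Stmn1* (cluster 12, 68 and 7 cells). *Hpgds* stood at 346 CPM in PBS and 468 CPM in DTX in cluster 3, against 41.2 and 28.0 CPM in cluster 4. *Ptgs2* stood at 308 and 249.4 CPM in cluster 3, against 41.7 and 18.9 CPM in cluster 4. *Ptgs1* differed less, with 258 and 293 CPM in cluster 3 and 167 and 150.2 CPM in cluster 4. *Ptges* was alike in PBS, with 97.6 CPM in cluster 3 and 93.7 CPM in cluster 4 (intervals 92.9 to 102 and 87.8 to 99.9 CPM), and stood at 166 and 119 CPM in DTX. In thinned cells of PBS, 30.9% of those with a UMI of *Ptgs1* also had one of *Hpgds*, against 20.4% of all epithelial-like cells. In DTX the same shares were 26.6% and 16.6%. The interval of the former, on 64 cells, was 16.3% to 39.1% and included the latter. *Pla2g2f*, a secreted phospholipase of the upper epidermis, stood at 301 and 395 CPM in this class, *Alox12e* at 133 and 140.1 CPM and *Aloxe3*, a lipoxygenase of the skin barrier, at 81.5 and 83.5 CPM.

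Fibroblast-like cells had the highest *Ptges* of all classes and high *Ptgs2*. *Ptgs2* stood at 632 CPM in PBS and 748 CPM in DTX, a log2 ratio of DTX over PBS of 0.24 (interval 0.20 to 0.28). Mast-like cells were the only class with more, at 691 and 941 CPM, and in PBS its interval (577 to 821 CPM) included the fibroblast-like level. *Ptges* stood at 164 and 159.9 CPM (log2 ratio −0.04, interval −0.12 to 0.04). The cluster led by *Ctsk* held 215 and 251 CPM of *Ptges* and the cluster led by *Mfap5* and *Sfrp2* held 80.5 and 100.3 CPM, whereas *Ptgs2* lay between 619 and 818 CPM in both clusters and libraries. Within both clusters the level of *Ptges* was thus higher in DTX. For the class as a whole its log2 ratio was −0.57 with at most 3% mitochondrial UMIs, and negative under every alternative setting that was run. The clusters were not followed under those settings. The cluster led by *Ctsk* made up 2159 of 3066 fibroblast-like cells in PBS and 313 of 657 in DTX. In thinned cells *Ptges* was found in 26.2% of fibroblast-like cells with a UMI of *Ptgs2* and in 18.5% of those without in PBS, and in 25.6% and 15.3% in DTX. Of the other pathway genes, *Ptgis*, the prostacyclin synthase (53.1 and 69.2 CPM), *Dpep1*, which converts leukotriene D4 (314 and 192 CPM), and *Ptgfr*, the prostaglandin F receptor (27.5 and 23.0 CPM), were highest in this class among the 9 compared.

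Other classes each expressed part of the pathway. Neutrophil-like cells had *Alox5ap* at 1059.95 CPM in PBS and 918 CPM in DTX and *Ptgs2* at 374 and 414 CPM. The PBS values rest on 207 and 73 UMIs, and the median depth was 1229 UMIs in PBS and 1914 UMIs in DTX. *Mrc1* stood at 123 and 197 CPM in these cells, and the part of macrophage RNA in their *Alox5ap* and *Ptgs2* was not tested. Their *Alox5* stood at 20.5 CPM from 4 UMIs and 33.8 CPM from 38 UMIs, and *Cyp4f18*, which inactivates leukotriene B4, at 563 and 613 CPM. Dendritic-like cells had the highest *Ptger4* in both libraries, at 58.2 and 72.1 CPM. They also held 18 of 34 UMIs of *Alox15*, the 12/15-lipoxygenase, in PBS and all 39 in DTX. Of the rest in PBS, the few mast-like cells and cluster 8 held 6 UMIs each. Macrophage-like cells had no UMI of *Alox15*, which allows up to 0.361 CPM in PBS and 0.0989 CPM in DTX. Of the NK or T-like cells, the cluster led by *Cd3g* and *Trdc* held *Hpgds* at 88.2 and 93.4 CPM from 19 and 18 UMIs, while the class as a whole stood at 15.96 and 16.9 CPM. Pericyte-like cells had *Ptges* at 54.8 and 73.2 CPM and the highest *Ptgir*, the prostacyclin receptor, at 96.2 and 98.2 CPM. The mast-like cluster was led by *Mcpt4* and *Cma1* but also by *Mcpt8* and *Prss34*, genes of basophils, and its summed mast genes stood at 41387 CPM in PBS and 146220 CPM in DTX. The part of this in its *Alox5ap* (991 and 255 CPM) was not tested.

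Macrophage-like cells had the largest number of the genes described here past 2-fold, and also the largest number with enough UMIs to be compared. Of the 9 genes with at least 50 UMIs, *Ptger2* was at least 2-fold higher in DTX, and *Hpgds* and *Ptgs1* were at least 2-fold lower. Among all 10122 genes with as many UMIs, 1.67% were at least 2-fold higher and 3.39% at least 2-fold lower. The median log2 ratio was 0.12 over the 9 genes and 0.05 over all genes. *Ptger2*, the EP2 receptor, which raises cyclic AMP, stood at 4.45 CPM from 37 UMIs in PBS and at 19.4 CPM from 588 UMIs in DTX. Its log2 ratio was 1.90 (1.498 to 2.32). It was found in 0.946% of thinned cells in PBS and in 3.92% in DTX, against 0.0492% and 0% of epithelial-like cells, and unthinned in 2.00% and 10.7%. *Ptger4*, the EP4 receptor, was at 18.6 and 16.5 CPM, with a log2 ratio of −0.17 (−0.42 to 0.09).

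*Ptgs2* was 1.98-fold higher in DTX and so just under the 2-fold limit. It stood at 152 CPM from 1267 UMIs in PBS and at 303 CPM from 9178 UMIs in DTX, a log2 ratio of 0.99 (0.90 to 1.07). *Ptgs1* was lower in DTX, at 9.26 and 3.63 CPM (log2 ratio −1.15, −1.52 to −0.77), on 77 and 110 UMIs. *Ptges* stood at 6.49 and 8.34 CPM (0.32, −0.06 to 0.71). *Hpgds* stood at 70.8 CPM from 589 UMIs in PBS and at 16.3 CPM from 495 UMIs in DTX, a log2 ratio of −2.05 (−2.22 to −1.88), the largest among the 9. With keratinocyte RNA at 1.29% and 0.379% of its epithelial level in these cells, epithelial RNA would carry 2.86 and 0.750 CPM of *Hpgds*, and 2.79 and 0.771 CPM of the *Ptgs1* measured. These values cover epithelial RNA alone. The part of RNA from Langerhans-like cells, in which *Hpgds*, *Ptgs1* and *Ltc4s* are highest, was not tested. On the leukotriene side, *Alox5ap* stood at 505 and 794 CPM (0.65, 0.61 to 0.70) and *Ltc4s* stood at 23.1 and 13.7 CPM (−0.71, −0.95 to −0.47). *Alox5* was scarce, at 1.68 CPM from 14 UMIs and 1.91 CPM from 58 UMIs (0.12, −0.46 to 0.67). With at most 3% mitochondrial UMIs the log2 ratio of *Ltc4s* turned to 0.53 and that of *Ptges* was 1.39. In the lists the study drew up on these same samples, *Hpgds* and *Ltc4s* belong to macrophage subsets, so their pattern across subclusters is no independent evidence.

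**Figure D3:**
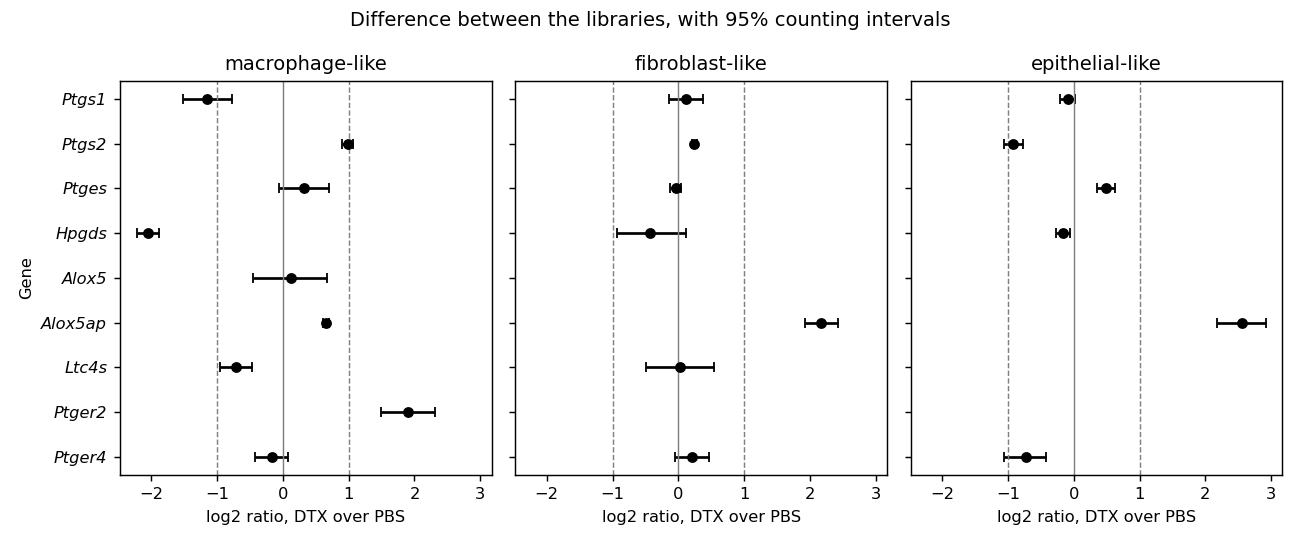
Points give the log2 ratio of DTX over PBS (x axis) of each gene with at least 50 UMIs (y axis) in macrophage-like, fibroblast-like and epithelial-like cells, bars are 95% counting intervals, and dashed lines mark 2-fold. *Hpgds* lies at −2.05 and *Ptger2* at 1.90 in macrophage-like cells, and *Alox5ap* at 2.17 and 2.55 in the other classes.

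The macrophage-like cells of the libraries lay largely in different subclusters. Subcluster 0, led by *Ccl8* and *Selenop*, held 73.7% of those of PBS and 5.77% of those of DTX. Subclusters 1 (*Arg1*, *Cxcl3*), 2 (*Hp*, *Ifitm6*, *Vcan*), 3 (*Ccl7*, *Cbr2*) and 4 (*Il1r2*) held 28.4%, 25.0%, 20.6% and 14.3% of those of DTX, and between 1.59% and 4.59% of those of PBS. Each gene was therefore followed within subclusters, and the DTX level was also computed with the subclusters weighted as in PBS, an alternative chosen after the data had been seen.

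For *Ptgs2* the difference was present within every subcluster. Its level was higher in DTX in each of the 7 subclusters, with log2 ratios from 0.32 in subcluster 4 to 1.43 in subcluster 2, and every interval lay above 0. In subcluster 0 it stood at 161 CPM in PBS and 305 CPM in DTX, and in subcluster 5, led by heat shock genes, at 91.6 and 245 CPM. With the PBS weights the DTX level was 292 CPM, a log2 ratio of 0.93. The log2 ratio of *Ltc4s* was −0.73 with the PBS weights. It was −1.37 (−2.11 to −0.55) in subcluster 3, −0.95 (−1.65 to −0.26) in subcluster 5 and −0.68 (−1.43 to 0.02) in subcluster 0. In subcluster 1 it was −1.30 (−2.44 to 0.11) and in subcluster 6 it was 0.03 (−1.96 to 2.20). In subclusters 2 and 4 *Ltc4s* had no UMI in PBS, which allows up to 12.7 and 6.00 CPM, and stood at 3.45 and 7.42 CPM in DTX. The intervals of the ratio in subclusters 2 and 4 included 0. *Ltc4s* was highest in subcluster 3, with 76.7 CPM from 16 UMIs in PBS and 29.0 CPM from 162 UMIs in DTX.

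For *Hpgds* and *Ptger2* the log2 ratio was closer to 0 with the PBS weights. *Hpgds* was high in subclusters 0, 5 and 6 in both libraries, at 76.4, 92.5 and 61.9 CPM in PBS and 51.3, 44.5 and 54.0 CPM in DTX. In DTX it was low in subclusters 1, 2 and 4, at 10.9, 5.92 and 7.80 CPM. With the PBS weights its DTX level was 45.4 CPM and its log2 ratio −0.63. Within subcluster 0 its log2 ratio was −0.57 (−0.94 to −0.21) and within subcluster 5 −1.04 (−1.53 to −0.56), and within subcluster 4, on 14 and 42 UMIs, −1.72 (−2.57 to −0.79). In subclusters 1, 2, 3 and 6 it was −0.37, −0.45, 0.24 and −0.19, with intervals that all included 0. *Ptger2* in DTX was highest in subclusters 1 and 2, at 25.3 CPM from 203 UMIs and 26.4 CPM from 214 UMIs, and stood at 5.87 CPM in subcluster 0. In subcluster 0 of PBS it was at 3.62 CPM, with an interval (2.24 to 5.54 CPM) that overlaps that of DTX (2.53 to 11.6 CPM). In subcluster 4 it had no UMI in 78 cells of PBS, which allows up to 6.00 CPM, and 72 UMIs in DTX, or 13.4 CPM, with a counting interval of the ratio above 0. In subclusters 1 and 2 PBS had 1 and 2 UMIs, and the log2 ratios were 1.69 (−0.65 to 4.48) and 1.54 (−0.22 to 3.77), whereas in subclusters 3 and 5 they were −0.35 (−1.71 to 1.38) and −0.85 (−2.29 to 0.62). With the PBS weights its log2 ratio was 0.58, and that of *Ptgs1* was −0.41.

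*Ptges* and *Alox5ap* varied among the subclusters of DTX. *Ptges* stood at 20.1 CPM from 161 UMIs in the subcluster led by *Arg1* and between 0 and 6.78 CPM in the other 6. With the PBS weights its DTX level was 2.68 CPM, a log2 ratio of −1.02 in place of 0.32. Subcluster 0, the largest in PBS, had 35 UMIs of *Ptges* in PBS but only 3 in DTX. Its log2 ratio there was −1.14, with an interval (−2.35 to 0.18) that included 0. Fibroblast RNA, the sum of 10 genes, stood at 967 CPM in macrophage-like cells of PBS and 204 CPM in those of DTX. Keratinocyte RNA stood at 626 and 193 CPM in them. The part of both in the *Ptges* measured was not tested. *Alox5ap* was highest in subcluster 2, at 899 CPM in PBS and 1031 CPM in DTX, and lay between 359 and 782 CPM elsewhere. Its log2 ratio with the PBS weights was 0.30.

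**Figure D4:**
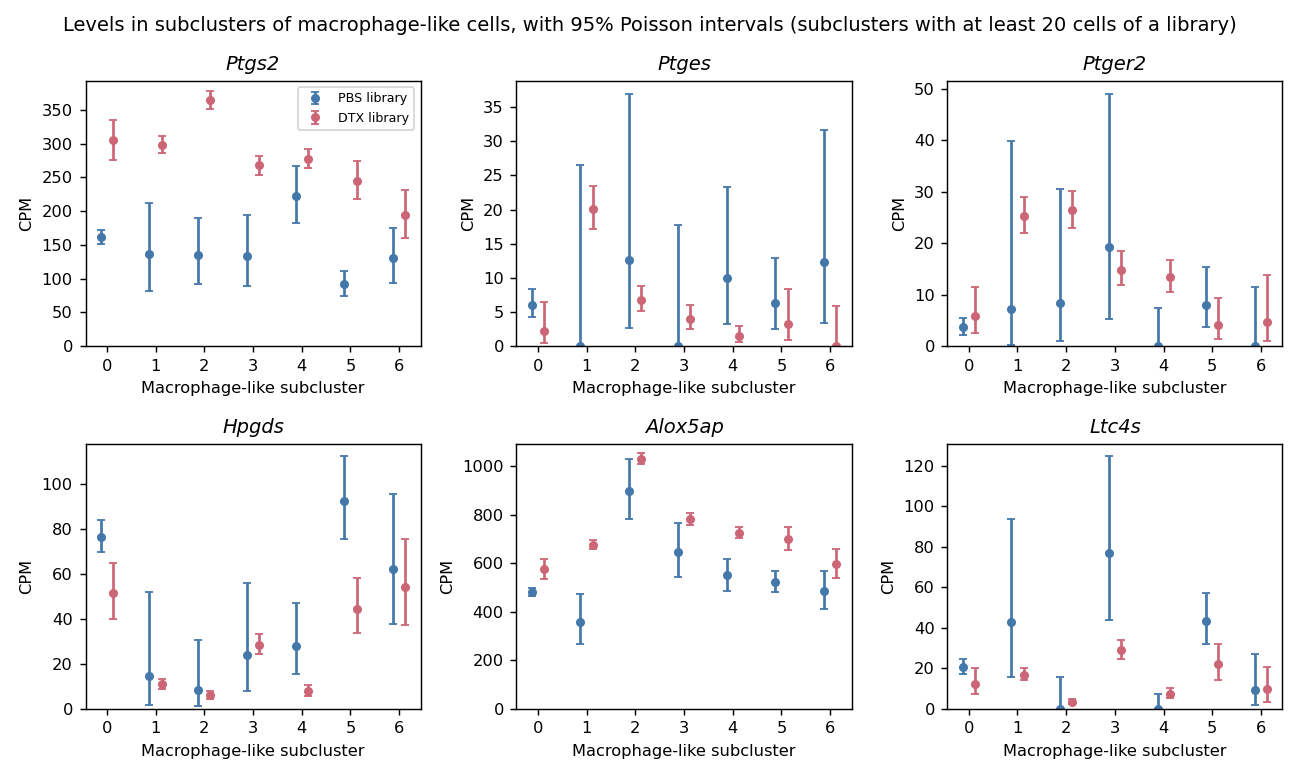
Points give the level in CPM (y axes) of 6 genes in the subclusters of macrophage-like cells (x axes) in the PBS and DTX libraries, with 95% Poisson intervals, for subclusters with at least 20 cells of a library. *Ptgs2* is higher in DTX in all 7 subclusters, *Hpgds* is highest in subclusters 0, 5 and 6, and *Ptges* reaches 20.1 CPM in subcluster 1 of DTX.

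Of the other genes of the pathway, 26 of 53 had enough UMIs in macrophage-like cells, of which 2 were at least 2-fold higher and 1 was lower in DTX, beside 1.67% and 3.39% of all genes. *Ltb4r1*, the high-affinity leukotriene B4 receptor, stood at 37.4 CPM in PBS and 139.5 CPM in DTX (log2 ratio 1.87, 1.71 to 2.04). *Fpr2*, a receptor for formyl peptides and lipoxin A4, stood at 15.5 and 36.4 CPM (1.18). *Hpgd*, which inactivates prostaglandins, stood at 5.05 and 2.01 CPM (−1.01), on 42 and 61 UMIs. Their median log2 ratio was −0.09. *Tbxas1*, the thromboxane synthase (32.1 and 23.7 CPM), *Lta4h* (18.5 and 25.7 CPM) and *Pla2g4a*, the cytosolic phospholipase A2 (17.0 and 19.7 CPM), stayed within 2-fold. The other pathway genes were not followed within the macrophage subclusters, whose shares differ between the libraries. *Ltb4r1* is in the list that the study drew up for its *Vcan*-positive macrophages on these same samples.

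Outside macrophages, *Alox5ap* was the gene most often past 2-fold. In fibroblast-like cells it was the only one of 7 genes past 2-fold, at 4.85 CPM in PBS and 25.4 CPM in DTX (log2 ratio 2.17, 1.92 to 2.43), where 2.65% of all genes were as much higher and 1.4% as much lower. In epithelial-like cells, of 6 genes it was again the only one, at 3.30 and 24.2 CPM (2.55, 2.18 to 2.91), against 2.67% of all genes higher and 2.07% lower. In NK or T-like cells it was the only one of 4, at 9.21 CPM from 15 UMIs and 26.1 CPM from 37 UMIs (1.41, 0.57 to 2.28), against 1.12% higher and 1.29% lower. Macrophage transcripts were also higher in DTX in fibroblast-like and epithelial-like cells, but not in NK or T-like cells. *Mrc1* had log2 ratios of 2.04 and 2.12 in the former and of −0.14 (−1.04 to 0.74, on 23 and 18 UMIs) in NK or T-like cells. The sum of the same 8 macrophage genes reached 0.640% of its macrophage level in fibroblast-like cells of PBS and 3.56% in those of DTX, 0.329% and 3.20% in epithelial-like cells, and 3.05% and 2.64% in NK or T-like cells. At these percents macrophage RNA would carry 3.23 and 28.2 CPM of *Alox5ap* into fibroblast-like cells, where 4.85 and 25.4 CPM were measured. For epithelial-like cells it would carry 1.66 and 25.4 CPM, where 3.30 and 24.2 CPM were measured, and for NK or T-like cells 15.4 and 21.0 CPM, where 9.21 and 26.1 CPM were measured. The part of macrophage RNA in these differences was not tested.

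**Figure D5:**
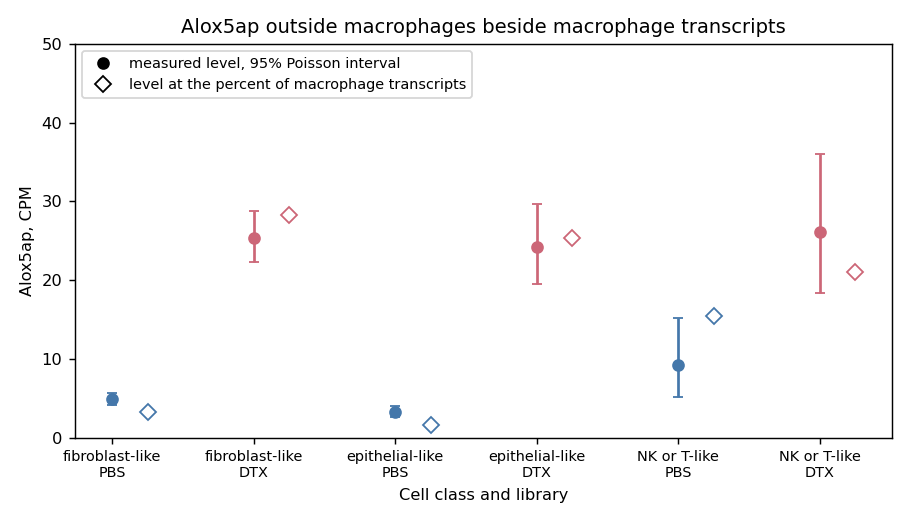
Filled points give the level of *Alox5ap* in CPM (y axis) with 95% Poisson intervals in 3 classes and both libraries (x axis), and open diamonds the level it would have if it were carried with macrophage transcripts at the percent measured. In DTX the diamonds stand at 28.2, 25.4 and 21.0 CPM beside measured levels of 25.4, 24.2 and 26.1 CPM.

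In epithelial-like cells the other genes stayed within 2-fold. *Ptgs2* stood at 206 CPM from 5874 UMIs in PBS and 109 CPM from 422 UMIs in DTX (log2 ratio −0.92, −1.06 to −0.78), and *Ptger4* at 35.3 and 20.9 CPM (−0.73, −1.06 to −0.42). *Ptges* was higher in DTX, at 94.4 and 133 CPM (0.49, 0.35 to 0.63). Cluster 3, in which *Ptgs2* is high, held 1162 of 2066 epithelial-like cells of PBS and 82 of 235 of DTX, and within it *Ptgs2* stood at 308 and 249.4 CPM. Dendritic-like cells had 1 of 6 genes past 2-fold, *Hpgds*, at 17.7 CPM from 51 UMIs and 8.02 CPM from 31 UMIs (−1.05, −1.67 to −0.43), where 0.982% of all genes were higher and 1.61% lower. Keratinocyte RNA stood at 551 CPM in PBS and 181 CPM in DTX in these cells, and its part in their *Hpgds* was not tested. *Ptgs2* in these cells was alike, at 191 and 194 CPM (0.03, −0.13 to 0.19).

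The smaller classes rested on few UMIs. In pericyte-like cells *Ptgs2*, 1 of 2 genes tested, stood at 87.2 CPM from 78 UMIs in PBS and 28.6 CPM from 48 UMIs in DTX (−1.58, −2.11 to −1.05), against 2.11% of all genes lower and 2.22% higher. In cluster 8 *Ptgs2*, 1 of 3, stood at 59.0 CPM from 76 UMIs and 22.0 CPM from 33 UMIs (−1.38, −1.99 to −0.79), against 1.78% lower and 4.37% higher. Neither gene tested in neutrophil-like cells (*Ptgs2* and *Alox5ap*) and neither in endothelial-like cells (*Ptgs1* and *Ptgs2*) passed 2-fold. Of all genes 5.79% were as much higher and 4.3% as much lower in neutrophil-like cells, and 1.86% and 2.65% in endothelial-like cells. In endothelial-like cells *Ltc4s*, with 14 and 28 UMIs, was under the limit of 50 UMIs. Fibroblast RNA stood at 8.39% of its fibroblast level in endothelial-like cells of PBS, which would carry 53.0 CPM of *Ptgs2* where 48.6 CPM was measured. In DTX it stood at 5.77%, which would carry 43.1 CPM where 66.3 CPM was measured.

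Among the other pathway genes of these classes, 10 of 37 passed 2-fold in fibroblast-like cells, 7 of them higher and 3 lower in DTX, beside 2.65% and 1.4% of all genes. The higher ones included *Pla2g7* (1.40 and 14.0 CPM), *Cyp4f18* (0.657 and 5.97 CPM) and *Ltb4r1* (0.999 and 4.32 CPM), which among the 9 classes compared are highest in macrophage-like or neutrophil-like cells. Macrophage transcripts were higher in fibroblast-like cells of DTX, as given above. Neutrophil RNA, the sum of 6 genes, stood at 8.79 CPM in those of PBS and 73.7 CPM in those of DTX. The part of both in the higher genes was not tested. The lower ones were *Ptgds*, a prostaglandin D synthase (4.97 and 0.206 CPM), *Pla2g5* (9.73 and 3.50 CPM) and *Pla2g2f* (2.77 and 0.720 CPM). Keratinocyte RNA was lower in these cells as well, at 0.974% of its epithelial level in PBS and 0.219% in DTX, and its part in the lower genes was not tested. In epithelial-like cells 2 of 30 were higher and 2 lower, beside 2.67% and 2.07% of all genes. In dendritic-like cells *Ltb4r1* (30.8 and 80.2 CPM) and *Cysltr1*, the leukotriene D4 receptor (9.36 and 21.2 CPM), were past 2-fold higher and *Cbr2* (14.2 and 4.91 CPM) past 2-fold lower, of 17 tested, beside 0.982% of all genes higher and 1.61% lower. *Ggt5*, which converts leukotriene C4, stood at 44.7 and 109.5 CPM in pericyte-like cells, and *Slco2a1*, the prostaglandin transporter, at 78.2 and 205 CPM in endothelial-like cells. *Pla2g5*, a secreted phospholipase, stood at 102 and 136 CPM in Langerhans-like cells and at no more than 9.73 CPM in any other class.

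Over the 18 profiles of 9 classes in 2 libraries, the genes most like each of the 10 except *Alox15*, which had too few UMIs, were sought among 9745 genes by Pearson correlation of log2(CPM + 1). The profiles share libraries and free RNA, and the values are descriptions. Langerhans-like and mast-like cells are not among the 9 classes. In PBS the Langerhans-like cells held 76.0% of the UMIs of *Alox5* and 65.3% of those of *Ltc4s*. The matches of these genes thus rest on their lower levels in other classes. The pattern of *Alox5ap* was closest to those of *Csf2ra* (r = 0.994), *Spi1* (0.992) and *Cd300a* (0.980). That of *Ptges* was closest to *Il1rl2* (0.951), that of *Ptgs1* to *S100a16* (0.939) and that of *Alox5* to *Pet100* (0.928). For *Ltc4s* it was *Prcp* (0.913), for *Hpgds* *Tuba4a* (0.905), for *Ptger2* *Apobr* (0.899) and for *Ptger4* *Timmdc1* (0.868). *Ptgs2* was least matched, with *Fnip1* at 0.810 and *Dusp1* at 0.804.

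On GRCm38 the cyclooxygenase genes lie at chr2:36230426-36252272 (*Ptgs1*, plus strand) and chr1:150100031-150108227 (*Ptgs2*, plus). The synthases lie at chr2:30889471-30929863 (*Ptges*, minus) and chr6:65117293-65144908 (*Hpgds*, minus). The leukotriene genes lie at chr6:116410077-116461178 (*Alox5*, minus), chr5:149264767-149288153 (*Alox5ap*, plus) and chr11:50236461-50238616 (*Ltc4s*, minus), and *Alox15* at chr11:70344152-70352031 (minus). The receptor genes lie at chr14:44988195-45003820 (*Ptger2*, plus) and chr15:5206661-5244187 (*Ptger4*, minus). *Gm19719*, *Gm26542*, *Gm17173* and *Ttc33* overlap *Alox5ap*, *Ltc4s*, *Ptger2* and *Ptger4* on the opposite strand, and whether the counting used strand is not given in the sources used here.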

How the data were processed

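Live cells of day 5 mouse wounds were captured with 10x Genomics 3′ reagents, 1 library per group. Per the submitters' processing notes reads were aligned to mm10 with Cell Ranger 6.1.1, for which the methods give another version. The authors deposited raw UMI counts per gene and cell barcode, without normalization. Technical replicates are named in the methods, but not whether they were merged.

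Here the 12058 and 11031 barcodes (105511870 and 81858751 UMIs) were filtered on a minimum of 500 genes and a maximum of 6% mitochondrial UMIs (8326 and 7188 cells left). The maximum of 2000 genes that the methods state served only as an alternative. Doublets were scored by Scrublet in scanpy 1.11.5 with an expected rate of 8%. Its threshold removed 382 cells of PBS, and as it called none in DTX the top 8% of scores, 575 cells, were removed there. Seurat 5.3.0 in R 4.3.3 clustered the rest with 2000 variable genes less those of the pathway, 30 principal components and a resolution of 0.2 (0.5 for macrophage-like cells).

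Clusters were named by the marker list with most members among its 10 leading genes, if at least 3 of its markers were raised 2-fold over the median cluster (50 CPM added) and found in 10% of its cells, no other list had 3 among the leading genes, and, with none of its markers there, all of them were raised. The naming rule was revised after clusters had been seen, and all 10 genes and all lists were chosen with earlier results of these data known. Levels are UMIs summed over a class, as CPM with exact Poisson intervals. Log2 ratios had 1 CPM added, with exact conditional binomial intervals. A gene was called at 2-fold or more with at least 50 UMIs over both libraries. Shares of cells were taken after thinning to 2000 UMIs, which left out 912 cells, with Clopper-Pearson intervals. A count of 0 was read as allowing 3 UMIs. The ratio code was tested on simulated counts. The genes named are the 10, the other pathway genes (57 listed, 53 with a unique symbol in the tables), *Mrc1*, leading genes of clusters and the genes most like each of the 10 except *Alox15* (sought among genes with at least 200 UMIs in each library). Python 3.11.15 was used, with scipy 1.17.1 for intervals, numpy 2.4.6, pandas 2.3.3 and, for plots, matplotlib 3.10.9. Alternatives changed the filters, doublets, pseudocount, scaling, weighting, depth, clustering and UMI minimum.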

Additional observations from a re-analysis of the deposited data

Results flagged for a closer look

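In 2 genes the difference between the libraries had opposite signs in different classes, with intervals on both sides of 0 and at least 1 class past 2-fold. How many of all genes meet the same rule was not counted, so the 2 cannot be read as a result about these genes. The difference between the classes was not tested, since there was 1 library per group. *Ptgs2* had log2 ratios of DTX over PBS above 0 in the macrophage-like (0.99) and fibroblast-like (0.24) class, and below 0 in the epithelial-like class (−0.92), cluster 8 (−1.38) and the pericyte-like class (−1.58). The sign in epithelial-like cells was the same within its larger clusters, with 308 and 249.4 CPM in cluster 3 and 41.7 and 18.9 CPM in cluster 4. *Alox5ap* had log2 ratios above 0 in the macrophage-like (0.65), fibroblast-like (2.17), epithelial-like (2.55), dendritic-like (0.29) and NK or T-like (1.41) classes. Its only one below 0 with an interval that left out 0 was in cluster 8 (−0.18, −0.33 to −0.04). It was past 2-fold only in fibroblast-like, epithelial-like and NK or T-like cells. The levels that macrophage RNA would carry into these are given above, and its part was not tested.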

How the results depend on the processing

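No paired analysis was possible because there was 1 library per group and no replicate number. Intervals cover counting error only, and depth limits the smaller classes, where few of the genes reach 50 UMIs. Of 41 log2 ratios with enough UMIs 9 were past 2-fold, and the shares of all genes are given above by class. These 9 kept their direction under every alternative that could be run, and 4 of them stayed past 2-fold in each. The 4 were *Alox5ap* in fibroblast-like and epithelial-like cells and *Ptgs2* in cluster 8 and pericyte-like cells. None of the 4 was in macrophage-like cells, and no alternative removed RNA carried from other classes. Of the 41, 11 changed direction under some alternative. In macrophage-like cells the 1 higher gene became 2 with at most 2000 genes per cell (*Ptges* added) or thinned cells (*Ptgs2* added), 3 with at most 3% mitochondrial UMIs (both added), and 0 with DTX subclusters at their PBS shares, an alternative added after seeing the data. The 2 lower genes became 1 with at most 2000 genes per cell or a pseudocount of 10 CPM, where *Ptgs1* stood at −0.78 and −0.50, and with a minimum of 200 UMIs, which *Ptgs1* misses. With the PBS shares neither *Hpgds* (−0.63) nor *Ptgs1* (−0.41) was past 2-fold, and the 1 lower gene was *Ptges* (−1.02). That value leans on 3 UMIs of *Ptges* in subcluster 0 of DTX. With at most 3% mitochondrial UMIs 2 genes in fibroblast-like cells were higher, *Ptgs1* (1.22) beside *Alox5ap*. In epithelial-like cells 1 gene, *Ptgs2*, was lower in place of 0 with the mean per cell (−1.02) or thinned cells (−1.10). With a pseudocount of 10 CPM the 1 lower gene in dendritic-like cells became 0 (*Hpgds* −0.62), as did the 1 higher gene in NK or T-like cells (*Alox5ap* 0.91). Other calls ended because the gene had too few UMIs for a ratio, and no fold was measured. So the higher gene in epithelial-like and NK or T-like cells and the lower gene in dendritic-like cells, cluster 8 and pericyte-like cells became 0 with thinned cells or 200 UMIs, and the lower gene in dendritic-like cells also with at most 3% mitochondrial UMIs or a resolution of 0.5. With at least 10 UMIs, where more genes enter, 1 gene was lower in neutrophil-like cells, 2 were higher in NK or T-like cells, 1 higher and 2 lower in pericyte-like cells, and 2 higher and 1 lower in endothelial-like cells. Some of these calls rest on few UMIs, such as 11 and 1 for *Hpgds* in endothelial-like cells. The share of all genes past 2-fold was computed for the main settings alone, so the counts under the alternatives have no such share beside them. With doublets kept 1 gene was higher in pericyte-like cells, and 203 of the 206 cells of cluster 8 joined the cluster named endothelial-like. That cluster of 374 cells was thus mixed, and its name does not describe cluster 8, which had *Cst3*, *Acp5* and *H2-Ab1* among its leading genes. The *Ptgs2* ratio of the mixed cluster, −0.60 in place of 0.44, is not one of endothelial-like cells alone. The cause of the changes in fold was not tested. With at most 2000 genes per cell all classes but macrophage-like and neutrophil-like had under 50 cells in a library, and with at most 3% mitochondrial UMIs all but these, fibroblast-like and dendritic-like, so they gave no value.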
